A study of Mus musculus with 2 samples.

Results

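*Runx1*, *Runx2*, *Runx3*, *Cbfb* and *Sp7* are the DNA-binding Runx factors, their shared partner and the zinc finger factor that acts with *Runx2* in bone, and their transcripts were followed through the cells of the embryonic mouse coronal suture. The 5 genes were taken by symbol from the gene lists of both stages, out of 27414 genes that both lists hold, and all 5 had at least 50 UMIs (unique molecular identifiers, counted transcripts) in the labelled cells of each stage, as had 12123 genes in all. The study built a single-cell atlas of the coronal suture, the fibrous joint between the frontal and parietal bones, in wildtype C57/BL6 embryos (C57BL/6J in the methods) at E15.5 and E17.5. Each stage was deposited as 1 matrix of UMIs by cell barcode, called a library here. The study states that separate E17.5 libraries were made for the 3 batches, and these are joined in that matrix. At E15.5, 10 pooled coronal sutures were digested with Collagenase II and Dispase, and dead cells were removed with a kit. At E17.5, strips from 16 sutures of 2 litters, in 3 batches of 10, 3 and 3 sutures, were digested with Collagenase IV and sorted against debris, cell doublets and likely dead cells. Stage, enzyme, live-cell selection, embryos, sequencing centre, reads per cell and gene list (31053 genes at E15.5, 27998 at E17.5) changed together. Their parts in a difference between the libraries therefore cannot be told apart. With 1 such library per stage there was no test between samples. All intervals given are 95% intervals for counting error alone, and UMIs pooled from many cells of one library are not biological replicates. Neighbouring levels were called separated where the interval of their ratio lay above 1.

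Runx factors bind DNA through the Runt domain, and *Cbfb*, which does not bind DNA itself, joins each of the Runx proteins and strengthens their hold on DNA. *Runx2* is needed for mesenchymal cells to become osteoblasts, and *Sp7* (osterix), which is switched on downstream of *Runx2*, is needed for the later steps to the bone-forming cell. Loss of one copy of *RUNX2* leaves wide-open sutures and fontanelles in cleidocranial dysplasia. *Runx1* is best known as the master regulator of definitive blood stem cells and *Runx3* from T cells, sensory neurons and cartilage, and both are also made in skeletal tissue.

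Gene models of GRCm38 (GENCODE M21) place *Runx1* (ENSMUSG00000022952) on chromosome 16 from 92601466 to 92826149, *Runx2* (ENSMUSG00000039153) on chromosome 17 from 44495987 to 44814797 and *Runx3* (ENSMUSG00000070691) on chromosome 4 from 135120652 to 135177990. *Cbfb* (ENSMUSG00000031885) lies on chromosome 8 from 105170674 to 105217989 and *Sp7* (ENSMUSG00000060284) on chromosome 15 from 102356606 to 102367182. The 3 Runx genes share a stretch of letters at their distal promoters. It is shown because it holds the core letters that Runx proteins bind, ACCACA, 2 times. RefSeq windows of 300 bases, from 250 before to 50 after a transcript start, were at hand for 4 of the 5 genes (6 windows on GRCm38.p6), and the longest run common to the first window of each Runx gene is in capitals below, written 5′ to 3′ on the strand of the gene:
Runx1, chr16:92826025-92826054, minus strand: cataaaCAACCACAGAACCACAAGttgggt
Runx2, chr17:44814583-44814612, minus strand: cacaaaCAACCACAGAACCACAAGtgcggt
Runx3, chr4:135120503-135120532, plus strand: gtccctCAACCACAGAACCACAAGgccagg
The run of 18 bases was searched for on both strands and was found in 4 of 32851 windows, those of *Runx1*, *Runx2*, *Runx3* and *Gm16225*. It begins 26 bases past the RefSeq start of *Runx1* and 21 bases past that of *Runx2*, both inside annotated exons, and at -136 from the start of *Runx3*, where the annotation has no exon of that gene. The motif ACCACA, counted on both strands, was found at least 1 time in 16.8% of all windows and 2 or more times in 1.81%. It occurred 2 times in the first window of *Runx1*, 3 times in that of *Runx2* and 2 times in that of *Runx3*, and 0 times in the second windows of *Runx1* and *Runx3* and in the window of *Cbfb*. A match is a description of the letters and does not show that a factor was bound there. The libraries count transcripts from their 3′ ends, so transcripts from the distal and the proximal promoter of a Runx gene were not separated.

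The labelled cells numbered 5335 at E15.5, with 48607817 UMIs and a median of 8510 per cell, and 6830 at E17.5, with 92585034 UMIs and a median of 12301.5. The authors' labels divide them into 15 clusters, of which 6 are osteogenic: OG1, which the study places earliest, OG2 and OG3 on separate branches, the osteoblast cluster OG4, and the proliferative clusters PO1 and PO2. The others are the ligament-like cluster LIG, the ectocranial clusters EC1 to EC4 above the bones and the meningeal clusters MG1 to MG4 below them. The study made its clusters from gene expression and used *Runx2* and *Sp7* to recognise the osteogenic ones, so the higher levels of these genes there are a description of the labels and not a finding. Clusters of the same name were not alike in both libraries. *Erg*, a marker of OG1 in the study, stood at 6.76 CPM (UMIs per 1000000 UMIs of the cluster) in OG1 at E15.5 and at 86.3 CPM at E17.5, and *Lef1*, a marker of OG2, stood at 73.4 CPM in OG2 at E15.5 and at 11.6 CPM at E17.5. OG4 carried its marker *Ifitm5* in both libraries, at 3263 and 3238 CPM, but its marker *Dmp1* stood at 603 CPM at E15.5 and at 89.2 CPM at E17.5. At E15.5, OG1 also held 90.5 CPM of *Krt5* and 41.6 CPM of *Myod1*, genes of keratinocytes and skeletal muscle, and at E17.5 it held 0.335 CPM of *Krt5* on 4 UMIs and 0 UMIs of *Myod1*. Of the 261 OG1 cells at E15.5, 51 held UMIs of at least 2 keratinocyte or muscle markers. Blood cell markers, 6 genes chosen because *Runx1* and *Runx3* are made by blood cells, summed to between 14.5 and 49.2 CPM over the 15 clusters at E15.5, highest in OG4, and to between 55.9 and 73.3 CPM at E17.5, with the 6 osteogenic clusters at 62.5 CPM or less.

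**Figure D1:**
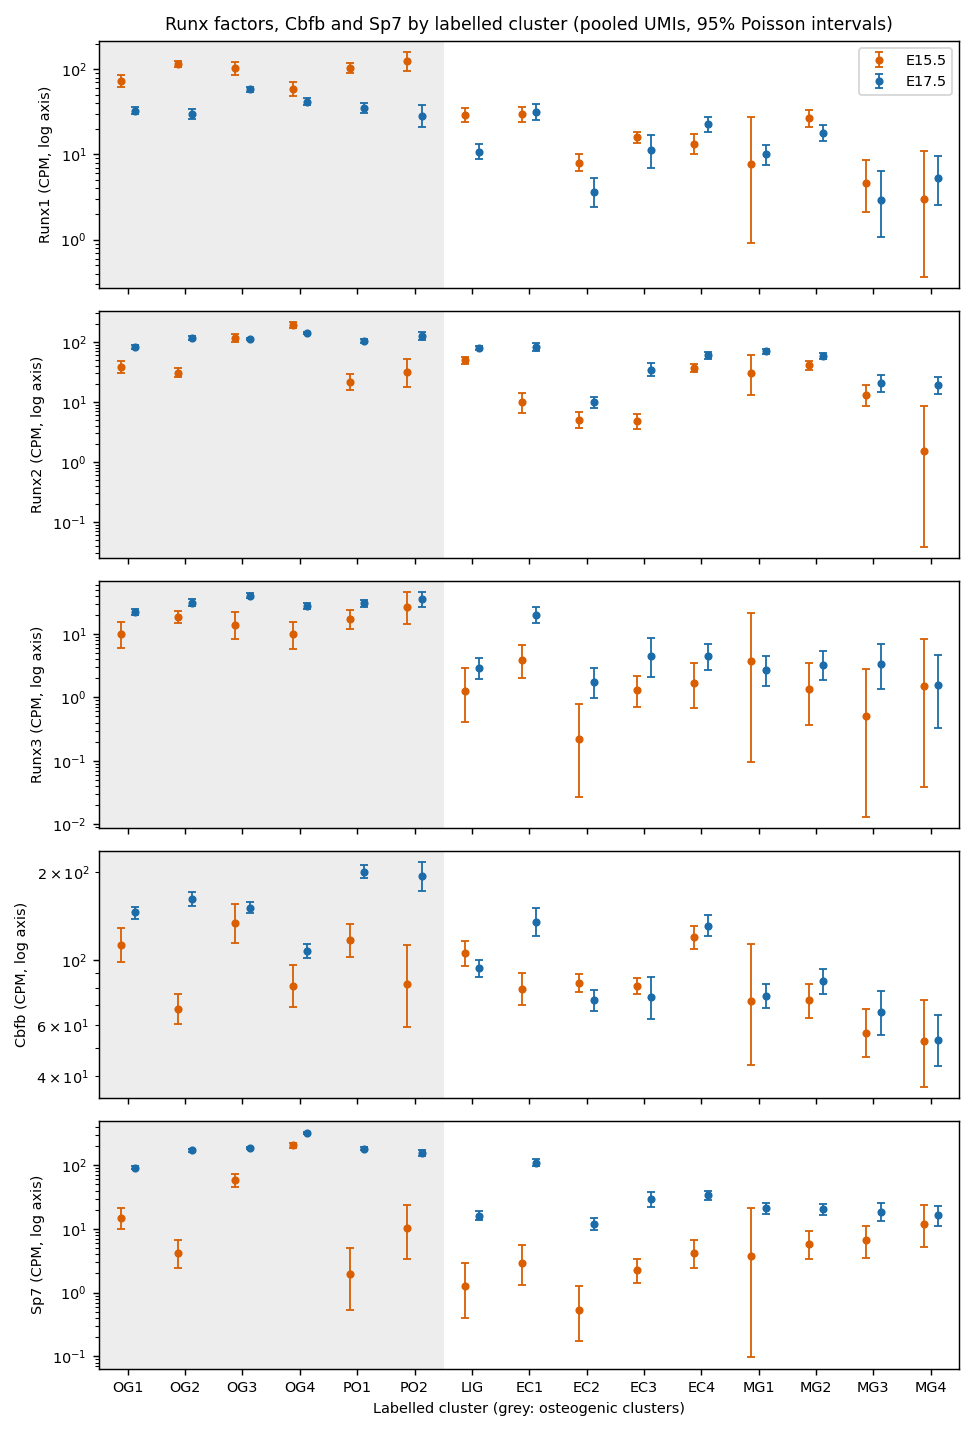
Level of each gene in CPM on a log axis (vertical) in each of the 15 labelled clusters (horizontal), with E15.5 in orange and E17.5 in blue. Points are pooled UMIs of 1 library and bars are 95% Poisson intervals. *Sp7* was highest in OG4 in both libraries (204 and 318 CPM), and *Runx3* was higher in the 6 osteogenic clusters than in the others at E15.5 (lowest osteogenic value 9.88 CPM, highest other value 3.90 CPM).

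*Runx2*, the factor that commits cells to the osteoblast lineage, had its highest level among the labelled clusters in OG4 at both stages, at E17.5 within counting error of PO2. At E15.5 its level was 38.5 CPM in OG1, 30.7 in OG2, 115 in OG3, 192 in OG4, 21.5 in PO1 and 31.0 in PO2. OG4 lay above OG3, and OG3 above LIG, the next in the order, by more than counting error, while OG1, OG2 and the proliferative clusters were at the level of several non-osteogenic clusters. Of these, LIG had 48.9 CPM, MG2 40.4, EC4 36.9 and MG1 30.5, and the lowest were MG3 with 13.2, EC1 with 9.75, EC2 with 4.99, EC3 with 4.76 and MG4 with 1.5 CPM, on 1 UMI. *Runx2* in OG4 was 4.98 times that in OG1 (3.87 to 6.49) and 1.66 times that in OG3 (1.37 to 2.03).

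At E17.5 *Runx2* was spread more evenly over the labelled cells. It stood at 82.1 CPM in OG1, 116 in OG2, 111 in OG3, 139 in OG4, 103 in PO1 and 125 in PO2. Neighbours in this order (OG4, PO2, OG2, OG3, PO1) did not differ beyond counting error, and OG1 was below PO1. Compared directly, OG4 was 1.20 times OG2 (1.11 to 1.31), 1.25 times OG3 (1.16 to 1.35) and 1.35 times PO1 (1.23 to 1.47). EC1 had 81.9 CPM, LIG 78.0, MG1 69.0, EC4 59.4, MG2 58.5 and EC3 34.5. The lowest were MG3 (20.6), MG4 (19.0) and EC2 (9.81 CPM). The cell types named among the unlabelled cells ran from 2.98 CPM in glia-like cells, on 1 UMI, to 32.7 CPM in chondrocyte-like cells. Pericyte-like cells had 15.6 CPM, and mast-like cells 21.3 CPM on 5 UMIs. OG4 held 1.70 times the *Runx2* of OG1 (1.56 to 1.84). Pooled over the 6 clusters, *Runx2* was 3.81 times its level elsewhere among the labelled cells at E15.5 (64.8 against 17 CPM, ratio 3.42 to 4.24) and 2.14 times at E17.5 (110 against 51.4 CPM, ratio 2.04 to 2.25).

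*Sp7*, the factor that follows *Runx2*, was confined more closely to OG4 and OG3 at E15.5. It measured 15.1 CPM in OG1, 4.14 in OG2, 58.7 in OG3, 204 in OG4, 1.96 in PO1 and 10.3 in PO2. OG4 lay above OG3 and OG3 above OG1 by more than counting error, and no pair of neighbours further down the order was separated. The non-osteogenic clusters ran from 0.543 CPM in EC2 to 12.0 CPM in MG4, a range that includes OG2, PO1 and PO2. *Sp7* in OG4 was 13.5 times that in OG1 (9.26 to 20.5), against 4.98 times for *Runx2*.

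At E17.5 *Sp7* was high in all 6 osteogenic clusters and in 1 ectocranial cluster. It measured 91.9 CPM in OG1, 172 in OG2, 187 in OG3, 318 in OG4, 180 in PO1 and 156 in PO2, and EC1, counted with the ectocranial clusters, had 110 CPM, 1.19 times OG1 (1.04 to 1.36). Several other genes of the osteogenic clusters were also higher in EC1 at E17.5 than at E15.5. *Dlx5* stood at 94.1 against 3.25 CPM, *Erg* at 30.1 against 1.30 CPM and *Mmp13* at 30.4 against 4.23 CPM. *Ifitm5* stood at 45.1 against 12.7 CPM, *Pthlh* at 11.1 against 1.95 CPM and *Podnl1* at 10.3 against 1.30 CPM. For *Lef1* (5.14 against 10.7 CPM), *Dmp1* (1.58 against 1.63 CPM) and *Inhba* (11.1 against 9.10 CPM) the intervals met. Such rises were not limited to EC1, with *Dlx5* at 152 against 20.3 CPM in the pooled osteogenic clusters. *Ifitm5* stood at 57.8 against 11.1 CPM over the labelled cells outside OG4. The part of osteogenic cells among those labelled EC1 was not tested. The remaining clusters held between 12.0 CPM in EC2 and 34.1 CPM in EC4. This low range overlapped the 8.50 to 30.8 CPM of the mast, myeloid, glia, osteoclast, endothelial, chondrocyte, neuron and pericyte-like cells of the same library, most of which are not known to make *Sp7*. Pooled, *Sp7* was 16 times as high in the osteogenic as in the remaining labelled cells at E15.5 (42.9 against 2.68 CPM, ratio 12.9 to 20.1) and 7.45 times at E17.5 (187 against 25.1 CPM, ratio 6.99 to 7.96). Counted by cell, after thinning each cell to 3000 UMIs, 43.2% of OG4 cells had an *Sp7* UMI at E15.5 and 60.9% at E17.5. Among myeloid-like cells, where the gene should be absent, the share was 1.05% at E15.5 and 2.49% at E17.5. Without thinning the OG4 shares were 71.6% and 97.3%, at median depths of 7351.5 and 19349 UMIs, against 2.03% and 8.51% of myeloid-like cells at median depths of 8803 and 9570.5.

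*Runx1* had a different order from *Runx2* and *Sp7* within the osteogenic clusters. At E15.5 it measured 73.3 CPM in OG1, 116 in OG2, 104 in OG3, 58.6 in OG4, 104 in PO1 and 124 in PO2. PO2, OG2, PO1 and OG3 were not separable, OG1 was below them and did not differ from OG4 beyond counting error, and OG4 held 0.506 times the level of OG2 (0.406 to 0.626). *Runx1* thus had its lowest osteogenic value in the cluster where *Runx2* and *Sp7* had their highest. EC1 followed with 29.6 CPM, LIG with 29.1, MG2 with 26.6, EC3 with 15.9, EC4 with 13.4, EC2 with 8.04, MG1 with 7.64, MG3 with 4.58 and MG4 with 3.01 CPM.

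At E17.5 the highest *Runx1* level among the labelled clusters was in OG3, the branch marked by *Mmp13*. OG1 had 32.6 CPM, OG2 29.8, OG3 58.3, OG4 41.4, PO1 35.1 and PO2 28.4. OG3 stood above OG4 by more than counting error and was 1.96 times OG2 (1.69 to 2.28). OG4 was 1.18 times PO1 (1.01 to 1.38), and from PO1 down to PO2, with EC1 at 31.6 CPM among them, neighbours were not separated. EC4 had 22.7 CPM, MG2 17.8, EC3 11.2, LIG 10.8, MG1 9.99, MG4 5.27, EC2 3.65 and MG3 2.94 CPM. The pooled osteogenic level was 5.98 times that of the non-osteogenic clusters at E15.5 (96.9 against 16.2 CPM, ratio 5.41 to 6.61) and 3.35 times at E17.5 (40.5 against 12.1 CPM, ratio 3.04 to 3.70).

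*Runx3* was low, and its levels in the osteogenic clusters lay above those of all other labelled clusters, though at E17.5 OG1 was not separated from EC1. At E15.5 it measured 9.88 CPM in OG1, 18.8 in OG2, 13.9 in OG3, 9.95 in OG4, 17.1 in PO1 and 26.9 in PO2, and these 6 clusters were not separated from their neighbours in the order, while OG1, the lowest, was 2.53 times EC1 (1.17 to 5.72). The other clusters ran from 0.217 CPM in EC2, on 2 UMIs, to 3.90 CPM in EC1. At E17.5 the osteogenic values were 22.4 CPM in OG1, 31.4 in OG2, 40.5 in OG3, 28.0 in OG4, 30.4 in PO1 and 35.2 in PO2, followed by EC1 with 20.2 CPM. OG1 was 1.11 times EC1 there (0.822 to 1.53). EC1 was above EC3, the next in the order, beyond counting error, and the remaining clusters ran from 1.58 CPM in MG4 to 4.57 CPM in EC3. The pooled ratio to the non-osteogenic clusters was 12.1 at E15.5 (8.76 to 17.1) against 7.71 for E17.5 (6.56 to 9.12), so *Runx3*, the least counted of the 5 genes, had with *Sp7* the highest ratios. At E17.5 its OG3 level was 1.45 times that of OG4 (1.25 to 1.67) and was not separated from that of PO2, the next labelled cluster.

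*Cbfb*, the common partner, was found throughout. At E15.5 it ranged from 52.7 CPM in MG4 to 134 CPM in OG3, with 113 in OG1, 68.3 in OG2, 81.8 in OG4, 117 in PO1 and 82.6 in PO2, and the osteogenic clusters together held 1.09 times the level of the rest (1.02 to 1.17), a direction that turned after thinning (0.923) and by the share of cells with a UMI (0.924). At E17.5 it ranged from 53.2 CPM in MG4 to 201 CPM in PO1, with 146 in OG1, 162 in OG2, 151 in OG3, 108 in OG4 and 194 in PO2, and the pooled ratio was 1.71 (1.64 to 1.77). The osteoblast cluster OG4 was thus the lowest of the 6 osteogenic clusters for *Cbfb* at E17.5, at 0.738 times OG1 (0.685 to 0.796). In the same cluster *Runx2* and *Sp7* were highest.

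A gene was called enriched in a cluster where its CPM reached 2 times the level of the remaining labelled cells, or more, in both libraries. Of the 75 pairs of a gene and a cluster, 3 were enriched: *Sp7* in OG4 (41.5-fold and 3.5-fold), *Runx1* in OG3 (3.07-fold and 2.51-fold) and *Runx3* in OG3 (3.15-fold and 2.58-fold). Over all 12123 genes, 1.88% of pairs were called, and 9.15% of genes were enriched in at least 1 osteogenic cluster, against these 3 of the 5. *Runx2* in OG4 was 8.66-fold at E15.5 but 1.80-fold at E17.5 and was not called. Taken singly, the E15.5 library gave 15 pairs at 2-fold or more and the E17.5 library 3. The count of pairs enriched in both libraries rests on the E17.5 cells used, since it was 7 with the cells of barcode suffix 1 alone. No share over all genes was counted for a single library or a single suffix, so these counts are not read as a result about the 5 genes.

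The make-up of the Runx UMIs differed between clusters and between libraries. A ratio of UMIs of different genes depends on how well each transcript is captured, so only its differences across clusters are read here. At E15.5 *Runx1* made up 60.3% of the *Runx1*, *Runx2* and *Runx3* UMIs in OG1 (53.7% to 66.6%), 70.1% in OG2, 44.5% in OG3, 22.5% in OG4 (18.8% to 26.5%), 72.9% in PO1 and 68.2% in PO2. *Runx2* made up 31.6%, 18.6%, 49.5%, 73.7%, 15.1% and 17% in the same order of clusters. The share of *Runx1* in OG4 thus lay below that in every other osteogenic cluster at E15.5, with intervals that do not meet. At E17.5 the clusters were closer together, with *Runx1* shares between 15.1% in PO2 and 27.8% in OG3 and *Runx2* shares between 52.9% in OG3 and 66.7% in OG4. *Runx3* shares lay between 3.82% and 14.8% at E15.5 and between 13.4% and 19.3% at E17.5, lowest in OG4 each time.

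*Sp7* UMIs per *Runx2* UMI were higher in OG4 than in OG1 to OG3 in both libraries. At E15.5 the ratio was 0.392 in OG1 (0.246 to 0.610), 0.135 in OG2 (0.0762 to 0.225), 0.510 in OG3 (0.382 to 0.677) and 1.06 in OG4 (0.916 to 1.23). At E17.5 it was 1.12 in OG1 (1.03 to 1.22), 1.48 in OG2 (1.36 to 1.62), 1.69 in OG3 (1.58 to 1.80) and 2.28 in OG4 (2.14 to 2.43). In LIG, where *Runx2* was present with little *Sp7*, the ratio was 0.0256 at E15.5 (0.00823 to 0.0609) and reached 0.208 at E17.5 (0.173 to 0.248). In EC1 it was 0.300 at E15.5 and 1.34 at E17.5, each within the range of the osteogenic clusters of its library. That range was 0.0909 in PO1 to 1.06 in OG4 at E15.5 and 1.12 in OG1 to 2.28 in OG4 at E17.5. EC2 also lay within both ranges, at 0.109 and 1.22, with low levels of both genes.

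**Figure D2:**
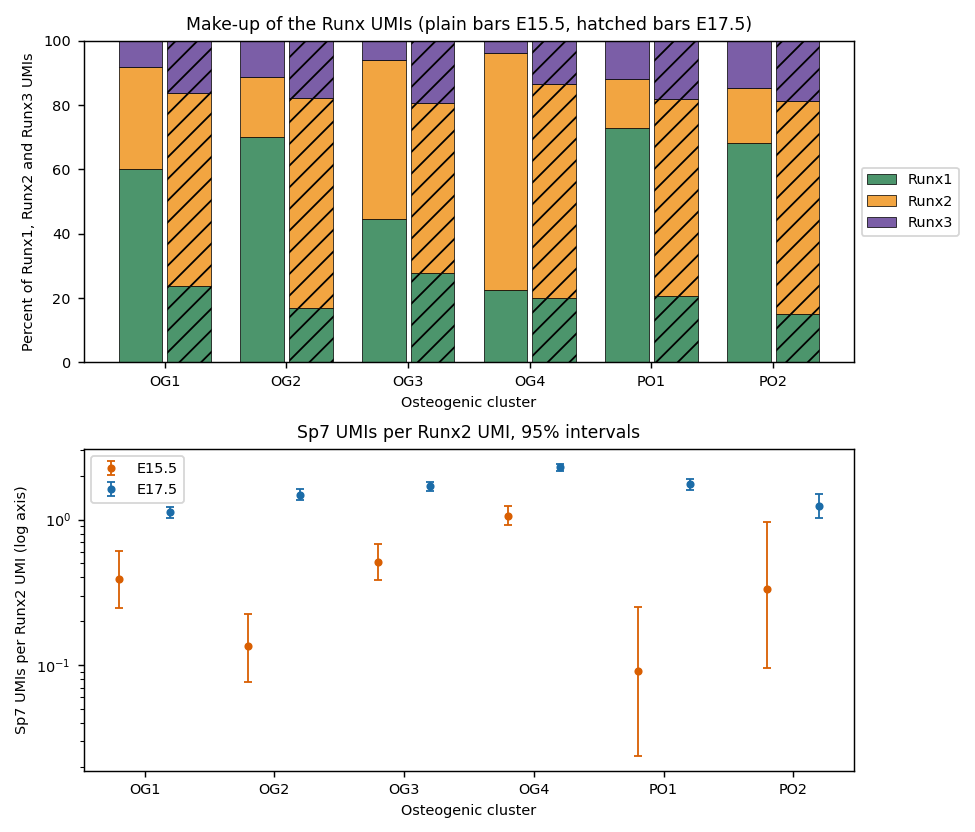
Upper panel: percent of the *Runx1*, *Runx2* and *Runx3* UMIs (vertical) that belong to each gene in the 6 osteogenic clusters (horizontal), plain bars for E15.5 and hatched bars for E17.5. Lower panel: *Sp7* UMIs per *Runx2* UMI on a log axis, with E15.5 in orange, E17.5 in blue and bars for 95% intervals. *Runx1* took 22.5% of the Runx UMIs in OG4 against 60.3% in OG1 at E15.5, and the *Sp7* to *Runx2* ratio was highest in OG4 in both libraries (1.06 and 2.28).

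Cells that held an *Sp7* UMI were compared with cells that held none for the share with a *Runx2* UMI, after thinning to 3000 UMIs. Over all osteogenic cells at E15.5 the share was 29.6% of 108 cells with *Sp7* (21.2% to 39.2%) and 12.8% of the cells without it (10.9% to 14.9%). Within OG4, which held 76 of the 108 cells, it was 36.8% with *Sp7* (26.1% to 48.7%) and 48.0% without (37.9% to 58.2%), so the pooled difference was not seen inside the cluster. At E17.5 the pooled shares were 28.1% of 1225 cells with *Sp7* (25.6% to 30.7%) and 24.0% without (22.2% to 25.8%), with intervals that meet. In OG1 they were 27.8% (21.7% to 34.6%) and 17.6% (15.1% to 20.4%), and in OG4 33.6% (28.5% to 39.1%) and 35.4% (28.9% to 42.4%). Of the 6 osteogenic clusters at E17.5, the intervals did not meet in OG1 and met in the other 5. *Runx2* UMIs were in 2.62% of thinned myeloid-like cells at E15.5 and in 2.70% at E17.5, cells that should lack the gene.

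**Figure D3:**
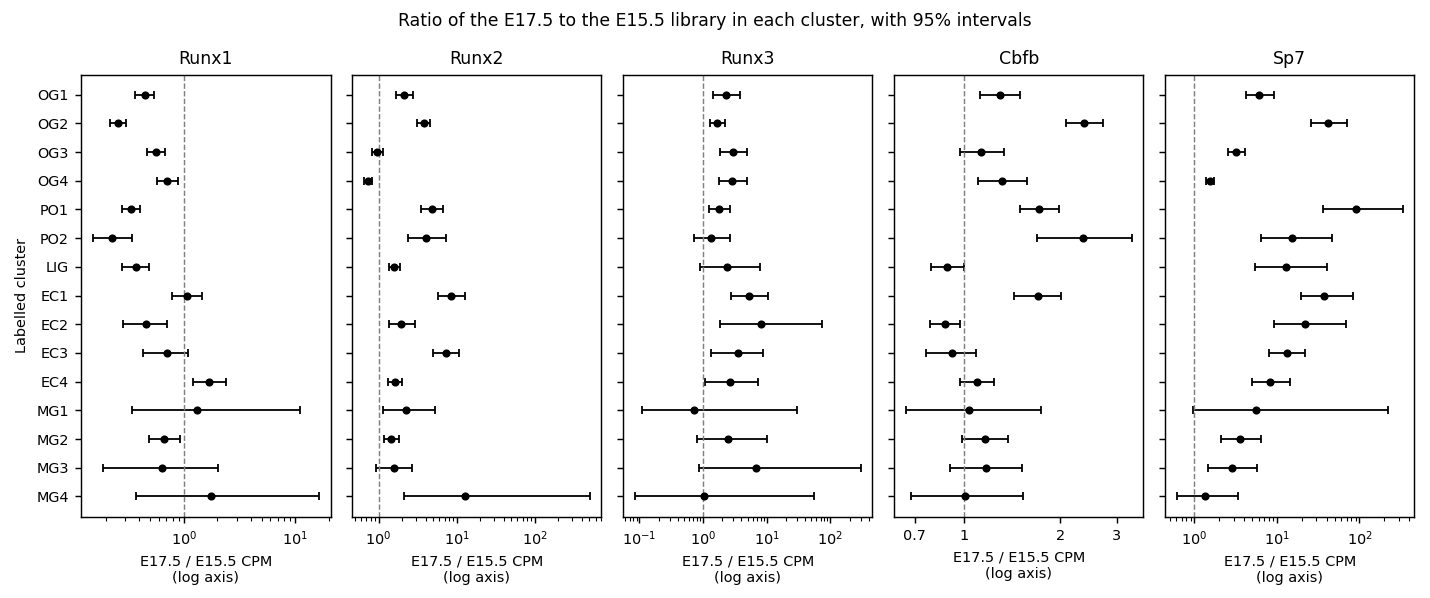
Ratio of the CPM at E17.5 to that at E15.5 (horizontal, log axis, own range for each gene) in each labelled cluster (vertical). Points are ratios of 2 libraries, bars are 95% intervals for counting error, and the dashed line marks a ratio of 1. *Sp7* lay above 1 in all 15 clusters, and *Runx1* below 1 in the 6 osteogenic clusters.

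Between the libraries, *Runx1* was lower and *Sp7*, *Runx3*, *Runx2* and *Cbfb* were higher at E17.5 in the pooled osteogenic clusters. *Runx1* went from 96.9 to 40.5 CPM, a ratio of 0.418 (0.389 to 0.450). *Sp7* went from 42.9 to 187 CPM, a ratio of 4.37 (3.99 to 4.79) that was 11.6 without OG4, an alternative added after the data were seen. *Runx3* went from 15.4 to 30.9 CPM, a ratio of 2.00 (1.71 to 2.35) that sits at the 2-fold limit. *Runx2* went from 64.8 to 110 CPM, a ratio of 1.70 (1.58 to 1.84), and *Cbfb* from 94.1 to 151 CPM, a ratio of 1.60 (1.51 to 1.71). For reference, 5.32% of all genes were at least 2-fold higher and 12.6% at least 2-fold lower at E17.5, and the median gene had a ratio of 0.970.

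Both directions held within single clusters for *Runx1* and *Sp7*. The interval of the *Runx1* ratio lay below 1 in 9 of 15 clusters, the 6 osteogenic ones included, and above 1 in EC4 alone (1.69, 1.21 to 2.39). The *Sp7* ratio ran from 1.36 in MG4 to 91.8 in PO1, the latter on 4 UMIs at E15.5, and its interval lay above 1 in 13 of 15 clusters. *Runx2* was the gene for which OG4 went the other way, with 0.726 (0.646 to 0.819) in OG4 and 0.965 (0.814 to 1.15) in OG3 against 2.13 in OG1, 3.77 in OG2, 4.79 in PO1 and 4.03 in PO2. Its interval lay above 1 in 12 clusters and below 1 in OG4 only. *Runx3* lay above 1 in 9 clusters and below in none, and *Cbfb* above 1 in 6 and below in 2 (LIG and EC2). Collagen and matrix genes took a large part of the E15.5 UMIs of OG4, with *Col1a1* at 53092 CPM and *Ibsp* at 41200 CPM against 18758 and 13640 CPM at E17.5, and the median gene of OG4 had a ratio of 1.10, above the 0.726 of *Runx2*. The part of these matrix genes in the OG4 ratios was not tested. *Sp7* was also higher at E17.5 in the clusters outside the osteogenic group (25.1 against 2.68 CPM pooled) and in myeloid-like cells (8.73 against 3.17 CPM), and the part of free RNA in the difference was not tested.

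**Figure D4:**
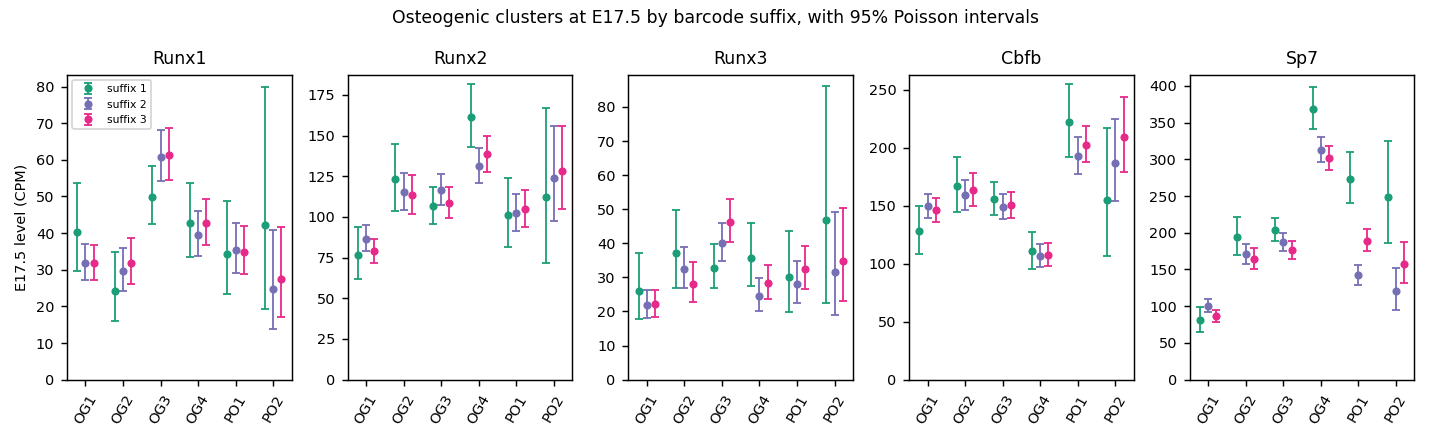
Level at E17.5 in CPM (vertical) of each gene in the 6 osteogenic clusters (horizontal), split by the 3 barcode suffixes of the matrix. Points are pooled UMIs and bars are 95% Poisson intervals. Pooled over the 6 clusters *Runx1* stood between 40.0 and 41.6 CPM for the 3 suffixes, while *Sp7* in PO1 ran from 142 to 273 CPM.

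The E17.5 matrix marks its barcodes with 3 suffixes, as many as the batches, although which suffix is which batch is not given. Pooled osteogenic *Runx1* was 41.6, 40.0 and 40.6 CPM for suffixes 1, 2 and 3, and *Runx2* was 116, 110 and 108 CPM. The intervals of the 3 suffixes met for both genes. *Sp7* was 228 CPM for suffix 1 (218 to 238), 180 for suffix 2 (175 to 186) and 179 for suffix 3 (173 to 185). In PO1 it was 273, 142 and 189 CPM, in PO2 248, 121 and 157 CPM, and in OG4 369, 313 and 302 CPM. In OG1 the order was another, with 80.8, 100.3 and 86.4 CPM. Each suffix had *Sp7* in OG4 above that in OG1, at 4.57, 3.12 and 3.49 times.

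The genes that *Runx2* and *Sp7* are known to drive in osteoblasts were often enriched in OG4. Of 15 counted osteoblast genes among the 18 listed, 11 were enriched in OG4 in both libraries, against 3.03% of all genes, with a median over the 15 of 83.4-fold in the earlier and 10.2-fold in the later library. All genes had medians of 0.689 and 0.835. These were the matrix proteins *Ibsp* (595-fold and 92.2-fold), *Spp1*, *Bglap*, *Bglap2* and *Dmp1*, the phosphate regulators *Alpl* (6.08-fold and 2.55-fold) and *Phex*, the osteoblast membrane protein *Ifitm5*, the channel *Panx3* (83.4-fold and 6.47-fold), the parathyroid hormone receptor *Pth1r* (3.55-fold and 4.81-fold) and *Sost*, an inhibitor of Wnt signalling that is usually a gene of osteocytes (88.4-fold and 96.5-fold). *Mmp13*, a collagenase and a known *Runx2* target, was at 0.163 and 0.168 times the other cells in OG4 and was enriched in OG3, where *Runx1* and *Runx3* were enriched too. At E15.5, however, the ratios of *Runx1* and *Runx3* to the other labelled cells were higher in OG2, PO1 and PO2 than in OG3. The study used *Ifitm5*, *Dmp1*, *Mmp13* and *Sost* to describe these clusters, so the count is not independent of the labels.

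Of 21 counted cofactors and regulators of Runx proteins, 2 were enriched in OG4, where 3.03% of all genes were, and 3 in at least 1 osteogenic cluster, as were 9.15% of all genes. *Dlx3*, a homeodomain factor of maturing osteoblasts, stood at 45.9 CPM in OG4 at E15.5 and 28.3 CPM at E17.5 (74.0-fold and 24.2-fold), and *Dlx5*, an activator of *Runx2*, was enriched in OG3. The corepressors *Tle1* to *Tle4*, the deacetylases and the coactivators *Yap1* and *Wwtr1* were not enriched in any osteogenic cluster, and the list's median ratio was 0.844 at E15.5 and 0.679 at E17.5. *Hdac7*, a repressor of *Runx2*, was lower in OG4 than elsewhere in both libraries (0.210 and 0.145 times). The 2 Twist genes, whose proteins hold back *Runx2*, differed in direction between the libraries, with *Twist2* at 393 CPM in the osteogenic clusters at E15.5 and 18.4 CPM at E17.5 and *Twist1* at 52.1 and 89.8 CPM. In OG4 itself *Twist2* was 17.1 and 20.7 CPM. Of the other Sp genes, *Sp1* to *Sp4* were counted and 0 of these 4 were enriched in OG4, where 3.03% of all genes were. Of the 5 counted blood cell markers, 0 were enriched in OG4.

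Across the 15 clusters the levels of *Runx1* and *Runx3* went together in both libraries, with Pearson's r of 0.869 at E15.5 and 0.869 at E17.5 on log2(CPM + 1). *Runx1* and *Sp7* had an r of 0.315 and 0.877, *Runx2* and *Sp7* 0.589 and 0.799, and *Runx3* and *Sp7* 0.445 and 0.974. The 15 points of a library share its sequencing depth, its free RNA and the clustering, and they are given as a description only. Ranked by the lower of the 2 coefficients among 12123 genes, the 5 genes most like *Runx2* were *Lmo7* (0.931), *Dync1i1* (0.878), *Kazald1* (0.873), *Tiam2* (0.835) and *Ankrd6* (0.831). The list for *Runx1* was *Lgalsl* (0.871), *Runx3* itself (0.869), the secreted Wnt inhibitor *Wif1* (0.869), *Btg1* (0.843) and *Ldha* (0.838). For *Sp7* it was *Myo1d* (0.874), *Lgals2* (0.853), *Rpl36al* (0.848), *Fat3* (0.842) and *Spata13* (0.841). For *Runx3* it was *Nhp2* (0.916), *Elmo1* (0.892), *Prpf38b* (0.886), *Hmgn5* (0.884) and *Slc25a5* (0.879), and for *Cbfb* it was *Spon1* (0.777), *Cdc14b* (0.760), *Prr5l* (0.754), *Cpne8* (0.727) and *Utp15* (0.725). The rankings held poorly under a rank correlation, as given in the section on processing choices.

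**Figure D5:**
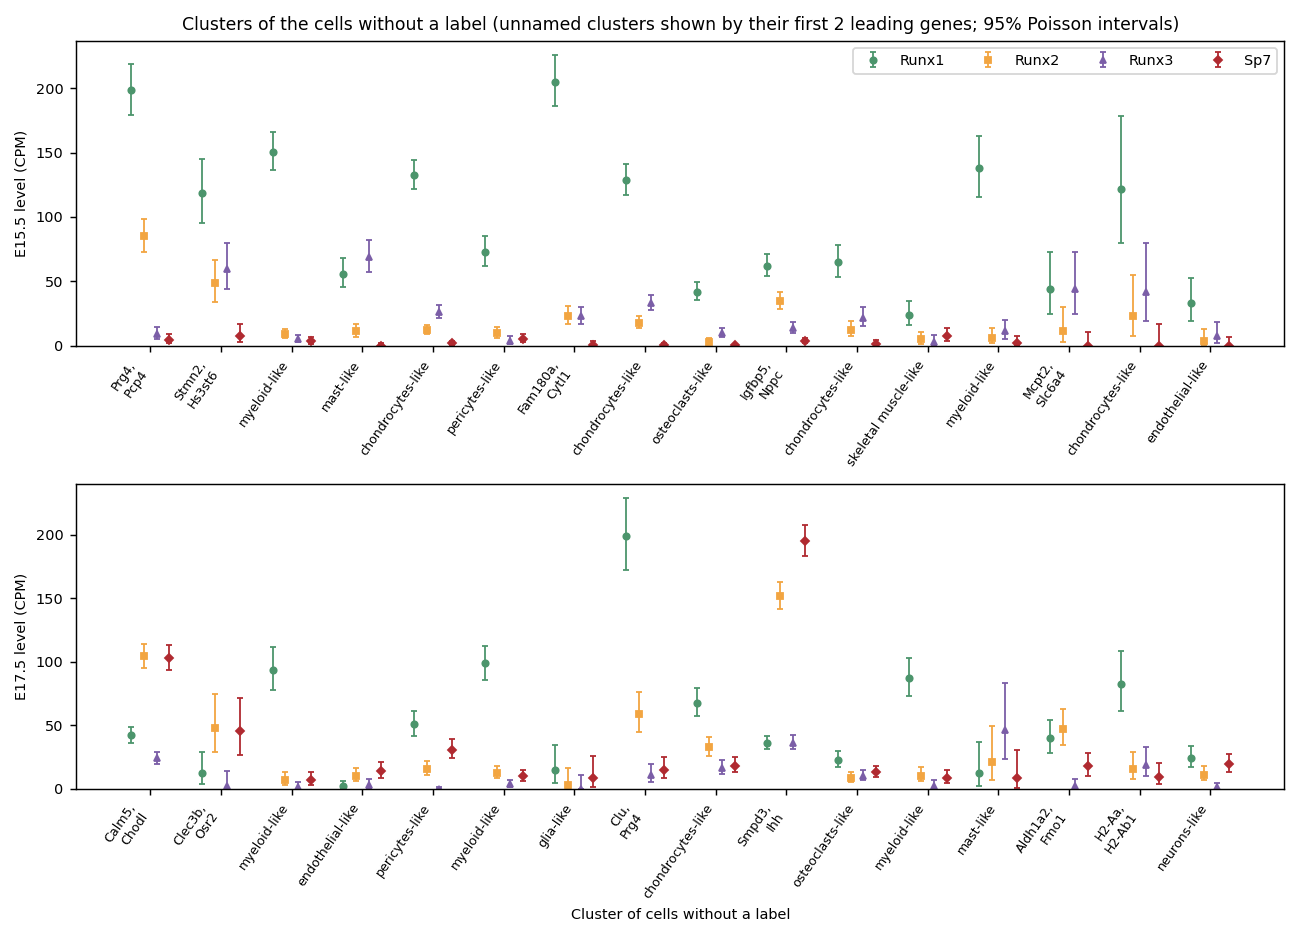
Level in CPM (vertical) of *Runx1*, *Runx2*, *Runx3* and *Sp7* in clusters of the cells without a label (horizontal), E15.5 above and E17.5 below. Points are pooled UMIs and bars are 95% Poisson intervals. Clusters with *Prg4* among their leading genes had *Runx1* at 198 CPM at E15.5 and 199 CPM at E17.5, and an E17.5 cluster led by *Smpd3* and *Ihh* had *Sp7* at 195 CPM.

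The cells without a label, 2875 at E15.5 and 1937 at E17.5, held the highest *Runx1* levels of both libraries. They were clustered here, and a cluster was called after a cell type only where its markers allowed it. At E15.5 an unnamed cluster of 242 cells led by *Fam180a* and *Cytl1* had 205 CPM of *Runx1* (186 to 226) and an unnamed cluster of 316 cells led by *Prg4*, the lubricin gene of joint surfaces, had 198 CPM (179 to 219). At E17.5 an unnamed cluster of 124 cells led by *Clu* and *Prg4* had 199 CPM (172 to 229). All 3 values lay above the highest labelled cluster of their library. The *Prg4* clusters also held *Runx2*, at 85.1 CPM and 59.3 CPM, with *Sp7* at 4.92 CPM and 15.1 CPM. Here *Runx1* and *Runx2* were present with *Sp7* at the level of the non-osteogenic cells.

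Myeloid-like cells, in which *Runx1* is known to act, had 147 CPM of *Runx1* at E15.5 (135 to 160) and 93.8 CPM at E17.5 (85.6 to 103). Chondrocyte-like cells had 119 CPM (112 to 126) and 67.5 CPM (57.2 to 79.2), with *Runx2* at 14.8 and 32.7 CPM. The E15.5 value pools 4 clusters, of which one of 159 cells led by *Ttr*, *Dct* and *Rlbp1*, genes not known for cartilage, had 64.7 CPM of *Runx1* (53.1 to 78.2). Endothelial-like cells had 33.1 CPM (19.6 to 52.3) and 2.57 CPM (0.7 to 6.58), on 18 and 4 UMIs, and the E15.5 value was 11.9 CPM when the cells were clustered at a resolution of 0.5. The intervals of the myeloid-like cells at the 2 stages did not meet, but these pools also differed in make-up. At E15.5 the pool included a cluster of 129 cells led by *S100a8* and *Hp*, with 138 CPM of *Runx1*. An E17.5 cluster of 75 cells with *S100a8* and *Hp* among its leading genes, at 82.6 CPM, was unnamed and not in the pool. Among the named types *Runx3* was highest in mast-like cells, at 69.0 CPM at E15.5 (57.4 to 82.3) and 46.8 CPM at E17.5 (23.3 to 83.7), while *Runx1* there was 56.1 CPM and, on 3 UMIs, 12.8 CPM. *Sp7* had 0 UMIs in the mast-like cells of E15.5, which allows up to 1.68 CPM, and 0 in the endothelial-like cells, which allows up to 5.52 CPM.

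At E17.5 an unnamed cluster of 160 cells had 195 CPM of *Sp7* (183 to 208), 152 CPM of *Runx2* (141 to 163), 36.1 CPM of *Runx1* and 36.5 CPM of *Runx3*. Its *Runx2* level was close to the 139 CPM of OG4, which stood at 161 CPM for barcode suffix 1 alone (143 to 181). The levels of the other 3 genes in the unnamed cluster lay within the osteogenic range. The leading genes of this cluster were *Smpd3*, *Ihh*, *Tcf7* and *Lgals2*, with *Panx3* and *Sp7* among the first 10. Its cells had a median of 35968.5 UMIs, and 28.8% of them had over 6000 genes, while no labelled cell of that library had more than 5995. Another unnamed cluster, of 195 cells led by *Calm5* and *Chodl*, had 104 CPM of *Runx2* and 103 CPM of *Sp7*, with 10.3% of its cells over 6000 genes. The E17.5 sort was gated against cell doublets, none were removed here by computation, and their part in these 2 clusters was not tested.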

How the data were processed

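Whole coronal sutures were profiled with the 10x Genomics 3′ system, and the authors deposited matrices of raw UMI counts for each gene and barcode. Reads were aligned to mm10 with Cell Ranger, 2.1.1 in the study's methods and 3.1.0 in the header of the E15.5 matrix. The authors also deposited a table of labelled cells with cluster names, percent values for mitochondrial and hemoglobin UMIs, and cell cycle score columns that were not used here. In this table the UMI totals of the E17.5 cells equalled the matrix for 6830 of 6830 cells, whereas those of E15.5 equalled it for 0 of 5335 (median 11513 against 8510), and 5 labelled E15.5 barcodes were missing from the matrix. The members and lists were chosen with earlier results of these data known.

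UMIs were summed by label and library with pandas 2.3.3, NumPy 2.4.6 and SciPy 1.17.1 under Python 3.11.15 and scaled to the total UMIs of each cluster. Intervals were exact: Poisson for a level, conditional binomial for a ratio of 2 levels and Clopper-Pearson for a share. A gene needed at least 50 UMIs in each library for the counts over genes. A count of 0 was given the limit of 3 counts. All labelled cells were kept, 93 at E15.5 outside the limits of the study (at least 1000 UMIs and 1000 genes, at most 7.5% mitochondrial and 3% *Hbb* or *Hba* UMIs). Unlabelled cells within these limits were clustered by the Leiden method in Scanpy 1.11.5 with igraph (2000 variable genes, 30 principal components, 30 neighbours, resolution 1). A cluster was named where at least 3 of 5 fixed markers were 2-fold above the rest, unless its leading genes or depth spoke otherwise, and the rule that 3 markers need 1 among the 10 leading genes was added after the clusters were seen. Doublets were not removed; leaving out the 6% of cells with the highest Scrublet scores was an alternative. Labelled barcode sequences found in both libraries numbered 42, and their cells were kept. The summing, thinning and intervals were tested on simulated data. Named genes were the members, the 5 genes most alike to each by the lower Pearson correlation of both libraries, and the list genes enriched in OG4 or, for cofactors, in any osteogenic cluster. *Hdac7*, *Twist1*, *Twist2* and *Mmp13* fall outside that rule and were named after their values were seen, as were the groups of corepressors, deacetylases and coactivators and the leading genes of unnamed clusters. Alternatives were other cell filters, thinning, cell means, other totals, single suffixes, other thresholds and other cluster settings. Values of 1 listed cofactor are not reported here.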

Additional observations from a re-analysis of the deposited data

Results flagged for a closer look

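In 7 of the 75 pairs of a gene and a cluster the interval of a level against the other labelled cells lay above 1 in one library and below 1 in the other. The same count was not made over all genes, and with 1 library per stage no difference was tested between samples. *Sp7* in OG2 was 0.317 times the other labelled cells at E15.5 (0.183 to 0.512) and 1.54 times at E17.5 (1.46 to 1.63), and *Sp7* in PO1 was 0.153 times (0.0416 to 0.395) and 1.62 times (1.53 to 1.72). *Runx2* went the opposite way in LIG (1.84 at E15.5 and 0.915 at E17.5), in EC4 (1.33 and 0.693) and in MG2 (1.46 and 0.680), all clusters outside the osteogenic group. *Cbfb* was below the other cells in OG2 at E15.5 (0.760) and above them at E17.5 (1.35), and in LIG it was above (1.22) and then below (0.737). The ratio of a cluster to the other labelled cells moves with the other clusters too, and the osteogenic cells held 11654897 of 48607817 labelled UMIs in the E15.5 library, against 52150275 of 92585034 in the E17.5 library.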

How the results depend on the processing

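No paired analysis was possible because each stage has 1 library. Of 270 ratios between groups, clusters or libraries recomputed under an alternative, 266 stayed on their side of 1. The exceptions were *Cbfb* in the osteogenic against the other cells at E15.5 (0.923 thinned, 0.924 by share of cells with a UMI) and *Runx3* in OG4 against OG1 at E15.5 (0.735 as a mean over cells, 0.850 without cells that hold UMIs of at least 2 keratinocyte or muscle markers), both near 1 to begin with. The values of the main comparisons that moved beyond their interval follow, a further 38 values of the remaining comparisons did so too without turning except as just given, and the cause was not tested unless the setting itself gives it. Osteogenic against other cells at E15.5: *Runx2* 3.2 thinned, 2.79 by share of cells and 4.49 without PO1 and PO2; *Sp7* 11.9 by share and 20.1 without PO1 and PO2. The same at E17.5: *Runx2* 1.95 by share, 2.91 and 1.95 for suffixes 1 and 3; *Sp7* 8.19 without the highest doublet scores, 6.39 thinned, 5.34 by share, 6.57 as a mean over cells, 6.56 and 8.03 for suffixes 1 and 2. OG4 against OG1: *Runx2* 6.56 thinned at E15.5, 2.11 and 1.52 for suffixes 1 and 2 at E17.5; *Sp7* 9.15 by share at E15.5, and at E17.5 3.94 thinned, 3.11 by share, 3.80 as a mean over cells, 4.57 and 3.12 for suffixes 1 and 2. E17.5 against E15.5: *Runx2* 1.45 without PO1 and PO2 and 2.48 without OG4, *Sp7* 3.89 as a mean over cells, 5.31 for suffix 1, 3.53 without PO1 and PO2 and 11.6 without OG4. Leaving out OG4, and leaving out cells with keratinocyte or muscle markers (51 of 261 OG1 cells at E15.5), were chosen after seeing the data. *Sp7* per *Runx2* in OG4 at E17.5 was 1.77 by share. Pairs enriched in both libraries numbered 5 by share, 7 with suffix 1, 10 at 1.5-fold and 1 at 3-fold, and cofactors enriched in OG4 numbered 1 with at least 200 UMIs. The share over all genes was not counted under these settings. Without thinning, the shares with *Runx2* among cells with and without *Sp7* were 68.0% and 24.1% in the E15.5 library, against 76.8% and 52.3% in the E17.5 library, and for suffix 1 the share without *Sp7* was 21.5%. Of the 5 genes most alike to each member, 2 for *Runx1*, 2 for *Runx2*, 1 for *Runx3*, 1 for *Cbfb* and 0 for *Sp7* were kept under a Spearman correlation. Over all alternatives, 125 values of the main comparisons stayed within their interval, or counts within 1.5 times, and 40 did not.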
